A study of Homo sapiens with 3 samples.

Results

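The genes described here encode the enzymes that make cholesterol and fatty acids, together with the proteins that sense sterols and switch those enzymes on. They are the 31 genes of a fixed list, found by symbol among the 58735 genes of the deposited count table, and each symbol matched 1 row. Cells build cholesterol in the endoplasmic reticulum from acetyl-CoA, through mevalonate, squalene and lanosterol. When sterols are scarce, the carrier SCAP brings the transcription factors SREBP1 and SREBP2 to the Golgi, where proteases release them to activate most genes of the pathway. When sterols are plentiful, INSIG proteins hold SCAP back. Fatty acid synthesis starts from the same acetyl-CoA, and SREBP1 is its main activator among these factors.

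The RNA came from RPE-1, a human retinal pigment epithelial cell line immortalised with telomerase. The derivative used here carries GFP-tagged Cetn2, a centriole marker, and PLK4, the kinase that starts centriole duplication, placed behind an rtTA doxycycline-inducible promoter. All 3 libraries are of 1 group, cells given scramble siRNA with a lipid transfection reagent and without induction of PLK4. The labels do not say whether the libraries came from separate cultures, so the spread between them may be technical. The study concerns the RNA-binding protein Unkempt in centriole overduplication. Its control state, analysed here, shows at which level lipid synthesis genes ran in these cells and how far they varied between libraries.

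The libraries held between 46625774 and 60040029 counts, and the 31 genes took 0.298, 0.294 and 0.280% of them in libraries 1, 2 and 3. Of 8 pigment epithelium markers 3 were detected, TYR, DCT and TTR had no counts, and RPE65 had 8, 6 and 0. The 4 markers of the usual state of this line, KRT8, KRT18, VIM and FN1, were all detected. None of 3 liver and none of 3 fat cell markers was detected, and APOA1, ADIPOQ and PLIN1 had no counts. The remaining fat cell marker, FABP4, had 63, 59 and 40 counts in libraries 1, 2 and 3, just short of detection. Library 1 stood apart from the others: mitochondrial transcripts took 9.07% of its counts, against 5.19% in library 2 and 5.71% in library 3. It also had counts in fewer genes, 19953, than library 2 with 24416 and library 3 with 23050. The part that these differences play in the results below was not tested.

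All 31 genes were detected, meaning a CPM (counts scaled to a common library size, with TMM factors) of at least 1 in every library, against 57.7% of all protein-coding genes in the table. Fewer cells that express a gene and less of its RNA per cell cannot be told apart in such libraries. Levels per gene length are given as RPKM, which is CPM per kb of annotated exon. The median over the 31 genes was 13.9 RPKM, against 6.09 for all detected protein-coding genes, and 25 of the 31 lay above that median. Levels spanned 62.3-fold, from 77.4 RPKM for ACLY to 1.24 for CYP51A1, whose level is uncertain for a reason given below. When the genes were ordered by level, 21 of the 30 pairs of neighbours had library values that overlapped, so most adjacent ranks cannot be separated. At the top ACLY, SCD and FDPS, and near the bottom SC5D, HSD17B7 and TM7SF2, each lay apart from the next gene down. Levels depend on the length used: per longest transcript FDPS stood at 59.97 RPKM and SCD took rank 5 instead of 2. Ratios between related genes are given per exon length as the mean of 3 libraries. The ratios given here kept their sign in every library, and each had a two-sided exact sign-flip p of 0.25, below which 3 libraries cannot go.

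**Figure D1:**
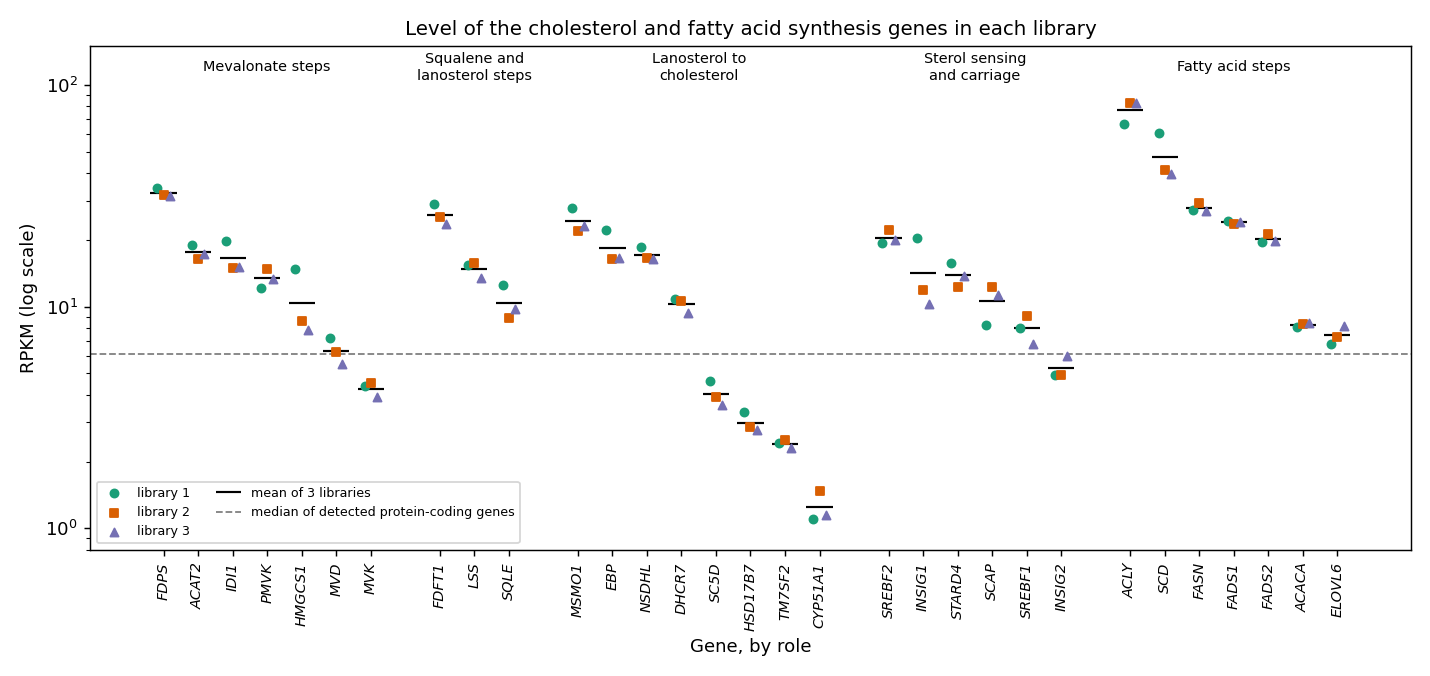
RPKM (log axis) of each gene in each of the 3 libraries, grouped by role and ordered by mean, with a bar at the mean and a dashed line at the median of detected protein-coding genes (6.09 RPKM). ACLY (77.4) and SCD (47.3) stand highest, 4 of the genes for the steps from lanosterol to cholesterol lie below the dashed line, and the points of library 1 sit clearly above the others for HMGCS1 and INSIG1.

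The mevalonate genes had a median of 13.4 RPKM. FDPS, the synthase of farnesyl diphosphate, was the highest of these 7 genes with 34.1, 32.0 and 31.5 RPKM in libraries 1, 2 and 3 (mean 32.5 ± 1.41 SD, n = 3). It lies on chromosome 1 from 155308748 to 155320666 on hg38, and its 8 annotated pseudogenes held only 0.101% as many counts as the gene itself. ACAT2, the cytosolic thiolase that joins 2 acetyl-CoA units, followed with 19.1, 16.4 and 17.3 RPKM. Opposite-strand annotation covers 52.3% of the exon length of ACAT2. SOD2-OT1, the gene with the largest share there, had 0, 2 and 3 counts, and any other gene there was not examined.

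IDI1, which isomerises isopentenyl diphosphate, had 19.8, 15.0 and 15.1 RPKM, and library 1 stood above the other two, which were nearly equal. PMVK, the phosphomevalonate kinase, stood at 13.4 ± 1.35 RPKM and was highest in library 2, and MVD, the decarboxylase after it, at 6.31 ± 0.857 (SD, n = 3 each). MVK, the mevalonate kinase, was the lowest of the 7 with 4.37, 4.51 and 3.89 RPKM. MVK and PMVK act in succession, and their library values did not overlap.

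HMGCS1, the cytosolic HMG-CoA synthase and a classical SREBP2 target, varied most among the mevalonate genes. It had 69.4 CPM in library 1, against 40.6 in library 2 and 37.0 in library 3, or 14.8, 8.63 and 7.86 RPKM. The value in library 1 was 1.88-fold that in library 3, far beyond counting error (chi-square test, adjusted p = 7.15e-139). Without library 1, HMGCS1 was higher in library 2 than in library 3 by 0.13 on the log2 scale (adjusted p = 0.0138).

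The 3 genes that lead from farnesyl diphosphate to lanosterol had a median of 14.8 RPKM. FDFT1, the squalene synthase at the branch into sterols, had 28.97, 25.3 and 23.7 RPKM (mean 26.0 ± 2.71 SD, n = 3). LSS, the lanosterol synthase, had 15.4, 15.7 and 13.4 RPKM. SQLE, the squalene epoxidase and a rate-limiting enzyme of the pathway, was the lowest with 12.5, 8.91 and 9.71 RPKM. SQLE was highest in library 1, 1.40-fold above library 2 (chi-square adjusted p = 1.67e-32). Without library 1 a smaller difference remained, with a log2 ratio of library 2 over library 3 of -0.12 for SQLE (adjusted p = 0.0224).

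The 8 genes for the steps from lanosterol to cholesterol had the lowest median of the role groups, 7.15 RPKM, and spanned 19.6-fold. Both values include CYP51A1, whose level is uncertain for a reason given below, so this rank is uncertain too. MSMO1, the methylsterol oxidase, led with 27.8, 21.9 and 23.2 RPKM. EBP, a sterol isomerase, had 22.2, 16.5 and 16.6 RPKM. Both were highest in library 1, but without that library neither call was kept (chi-square adjusted p = 0.0632 for MSMO1 and 0.883 for EBP). NSDHL, which removes the carboxyl group left by MSMO1, stood at 17.2 ± 1.23 RPKM, and DHCR7, the reductase of a last step, at 10.2 ± 0.804 (SD, n = 3 each).

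The other 4 genes of these steps lay below the median of detected protein-coding genes. SC5D, a sterol desaturase, stood at 4.04 ± 0.521 RPKM and HSD17B7, a keto-sterol reductase, at 2.99 ± 0.297 (SD, n = 3 each). HSD17B7 has 2 annotated pseudogenes that held 17.3% as many counts as the gene, so its level may be divided among copies. TM7SF2, a sterol reductase, had 2.42, 2.502 and 2.30 RPKM. LBR, which carries the same enzymatic activity in the nuclear envelope, stood 6.02-fold higher per exon length (14.5 RPKM).

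CYP51A1, the lanosterol demethylase, had only 192, 321 and 192 counts, or 1.10, 1.47 and 1.15 RPKM. Its level is uncertain, because other annotation on the same strand shares 79.4% of its exon length. AC000120.2, the gene with the largest share there, had 0 counts in each library. How reads over shared exons were assigned is not given in the sources used here. No other of the 31 genes shared more than 1% of its exon length on the same strand.

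Among the sterol sensors, SREBF2, which encodes SREBP2, was the highest with 19.4, 22.1 and 19.9 RPKM (mean 20.5 ± 1.46 SD, n = 3). SREBF1, which encodes SREBP1, had 8.02, 9.07 and 6.81 RPKM. Per exon length SREBF2 stood 2.58-fold above SREBF1 (log2 ratio 1.37 ± 0.16 SD). Per longest transcript the log2 ratio was 0.99, and by counts alone it was 1.28, so the order held under each length. SCAP, the escort of both factors, had 8.29, 12.3 and 11.2 RPKM and was lowest in library 1. The highest SCAP value was 1.48-fold the lowest (chi-square adjusted p = 8.35e-57). Without library 1, SCAP was higher in library 2 than in library 3 by 0.13 on the log2 scale (adjusted p = 0.00076).

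INSIG1, which retains SCAP and is itself an SREBP target, varied most of the 31 genes. It had 74.7 CPM in library 1, 43.5 in library 2 and 37.6 in library 3, a 1.98-fold range (chi-square adjusted p = 2.04e-163). Without library 1, INSIG1 was higher in library 2 than in library 3 by 0.21 on the log2 scale (adjusted p = 2.95e-05). Its paralogue INSIG2, which is less tied to SREBP, had 19.5, 19.4 and 23.6 CPM, so the library that was lowest for INSIG1 was highest for INSIG2. Per exon length INSIG1 exceeded INSIG2 by 4.15-fold in library 1, 2.42-fold in library 2 and 1.73-fold in library 3 (mean log2 ratio 1.37 ± 0.64 SD). STARD4, a soluble carrier that moves cholesterol between membranes, had 15.7, 12.3 and 13.7 RPKM.

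Promoters of pathway genes are known to hold sterol regulatory elements, which SREBP binds, next to boxes for its partner NF-Y. SREBF2 is shown because its promoter held the full element. INSIG1, HMGCS1, SCD, IDI1 and MSMO1 are examples, picked with values known, from 13 genes highest in library 1 with the NF-Y box. For IDI1 and MSMO1 the stretch of 80 bases was placed around such a box, so its presence there was fixed by the choice. The sequences are from RefSeq on GRCh38.p14, read 5′ to 3′ on the strand of the gene, and lie before the most upstream annotated start in GENCODE. Capitals mark matches of CCAAT, the NF-Y box, and of CACNCCAC, a short form of the sterol regulatory element. Matches on the opposite strand appear as ATTGG and GTGGNGTG.
SREBF2 promoter, chr22:41832855-41833078, plus strand: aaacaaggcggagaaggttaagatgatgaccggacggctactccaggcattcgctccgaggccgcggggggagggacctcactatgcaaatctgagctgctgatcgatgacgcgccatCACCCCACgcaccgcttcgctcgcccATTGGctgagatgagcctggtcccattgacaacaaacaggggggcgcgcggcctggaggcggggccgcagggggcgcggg
INSIG1 promoter, chr7:155297628-155297775, plus strand: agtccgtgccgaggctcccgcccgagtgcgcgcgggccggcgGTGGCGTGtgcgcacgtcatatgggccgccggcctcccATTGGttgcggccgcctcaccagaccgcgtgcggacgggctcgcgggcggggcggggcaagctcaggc
HMGCS1 promoter, chr5:43313513-43313662, minus strand: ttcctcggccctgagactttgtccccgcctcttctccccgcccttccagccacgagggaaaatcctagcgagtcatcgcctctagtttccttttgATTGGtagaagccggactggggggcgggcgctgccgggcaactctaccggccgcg
SCD promoter, chr10:100346983-100347123, plus strand: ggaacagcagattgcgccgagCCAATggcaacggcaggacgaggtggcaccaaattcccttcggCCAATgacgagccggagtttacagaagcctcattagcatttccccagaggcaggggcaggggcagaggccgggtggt
IDI1 promoter, chr10:1049197-1049276, minus strand: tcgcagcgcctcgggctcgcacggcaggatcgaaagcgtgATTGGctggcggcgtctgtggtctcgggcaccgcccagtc
MSMO1 promoter, chr4:165327543-165327622, plus strand: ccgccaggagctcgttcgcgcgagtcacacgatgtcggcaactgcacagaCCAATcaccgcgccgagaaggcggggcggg

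SREBF2 held the sterol element and an NF-Y box within the stretch shown, and so did INSIG1 with the short form of the element. The other stretches held 1 or 2 NF-Y boxes and no whole sterol element in these letters. SCD and IDI1 do hold the short form in a RefSeq promoter. In SCD the end of the stretch shown cuts it, and in IDI1 it lies outside the stretch. RefSeq promoters of 300 bases, from 250 before the start to 50 after it, were found for 27 of the 31 genes, not for ACAT2, FDFT1, SQLE and FASN. The NF-Y box CCAAT was present in 20 of the 27 genes (74.1%) on either strand, against 43.8% of 9270 detected protein-coding genes and 39.7% of all 27303 genes with a promoter. By gene, several starts give more chances of a match. Counted by promoter instead, the shares were 64.9% of 37 promoters of these genes and 34.6% of all 35114 promoters. Promoters of close starts overlap, as in ACLY and SC5D, so the same box can count more than once. The 7 genes without CCAAT were CYP51A1, ELOVL6, FADS1, INSIG2, PMVK, SCAP and SREBF1.

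The GC box GGGCGG was in 26 of the 27 genes, against 78.1% of detected protein-coding genes, and the E-box CACGTG was in 4, against 12.7%. Promoters of the 27 genes were somewhat richer in G and C, with a median over genes of 67.7%, against 65% in detected protein-coding genes. The full sterol element TCACNCCAC was in SREBF2 alone, and 1.46% of detected protein-coding genes held it. The short form CACNCCAC, which lies inside the full one and was chosen after the full one had been counted, was in 6 genes, ACACA, IDI1, INSIG1, SC5D, SCD and SREBF2. It was in 7.67% of detected protein-coding genes. These counts describe letters in a window and not binding.

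**Figure D2:**
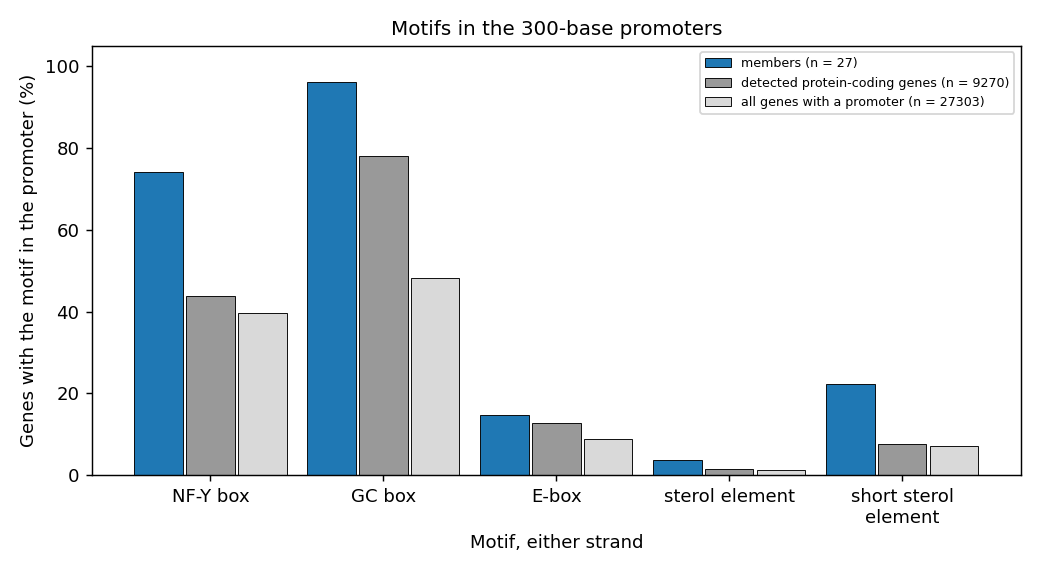
Percent of genes with each motif on either strand of a 300-base RefSeq promoter, for the lipid synthesis genes (blue, n = 27), detected protein-coding genes (grey, n = 9270) and all genes with a promoter (light grey, n = 27303). The NF-Y box stands at 74.1% in the lipid synthesis genes, against 43.8 and 39.7% in the others, and the full sterol element is rare in all 3 sets.

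The fatty acid genes were the most abundant role group, with a median of 24.0 RPKM. ACLY, which makes cytosolic acetyl-CoA from citrate for both pathways, was the highest of all 31 genes, above 96.3% of detected protein-coding genes. It had 67.0, 82.5 and 82.6 RPKM and was lowest in library 1, and libraries 2 and 3 did not differ beyond counting error (chi-square adjusted p = 0.947). FASN, the fatty acid synthase, had 27.3, 29.3 and 27.0 RPKM. ACACA, the carboxylase that makes malonyl-CoA, had 8.12, 8.30 and 8.44 RPKM, and its spread did not exceed counting error (chi-square adjusted p = 0.181). ACACB, the isoform at mitochondria, stood 9.36-fold lower per exon length than ACACA, at 0.886 RPKM.

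SCD, the stearoyl-CoA desaturase and an SREBP target, was the second most abundant of the 31 genes and had the widest range in its group. It had 325.5 CPM in library 1, against 221.3 in library 2 and 213.6 in library 3, so library 1 was 1.52-fold above library 3. The call was kept when an extra coefficient of variation of 0.05 was allowed (chi-square adjusted p = 2.6e-09). Without library 1 a far smaller difference remained, with library 2 above library 3 by 0.05 on the log2 scale for SCD (adjusted p = 0.029). Its paralogue SCD5 had 68.5, 67.2 and 65.9 CPM, and its spread did not exceed counting error (adjusted p = 0.372). Per exon length SCD stood 2.96-fold above SCD5 (log2 ratio 1.57 ± 0.31 SD).

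ELOVL6, which elongates saturated fatty acids, was the lowest fatty acid gene with 6.78, 7.30 and 8.15 RPKM. ELOVL5, which elongates polyunsaturated fatty acids, stood 5.49-fold higher per exon length. In library 1 ELOVL5 was highest and ELOVL6 lowest. FADS1 and FADS2, the neighbouring desaturases of polyunsaturated fatty acids on chromosome 11, were nearly equal, with 24.3, 23.6 and 24.0 RPKM for FADS1 and 19.6, 21.3 and 19.8 for FADS2. FADS1 stood 1.19-fold above FADS2 (log2 ratio of FADS2 over FADS1 -0.25 ± 0.08 SD). They lie on opposite strands and share 4.79% of the exon length of FADS1. FADS3, the third gene of the cluster, stood at 28.8 RPKM, but its order against FADS1 depended on the length used: the log2 ratio of FADS1 over FADS3 was -0.26 per exon length, 0.67 per longest transcript and 0.44 by counts.

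**Figure D3:**
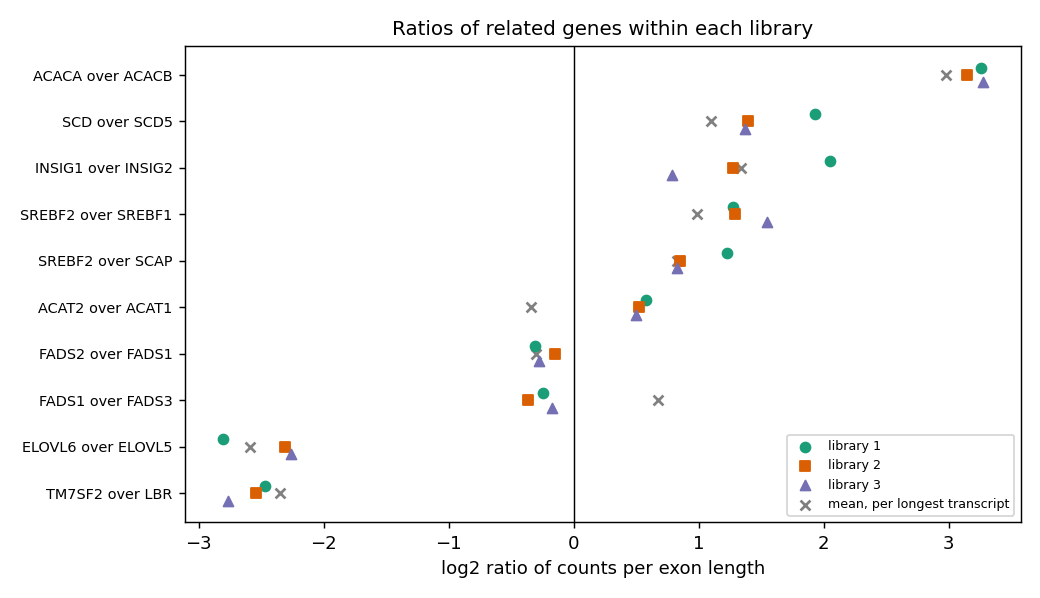
Log2 ratio of counts per exon length between related genes in each of the 3 libraries, with a cross at the mean ratio per longest transcript. The ratio of IDI1 over IDI2 is not plotted. Among those plotted, INSIG1 over INSIG2 spreads most, from 2.05 in library 1 down to 0.79 in library 3, and the crosses of ACAT2 over ACAT1 and FADS1 over FADS3 lie on the other side of 0 from the points.

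Among further ratios per exon length, ACAT2 stood 1.45-fold above ACAT1, the mitochondrial thiolase, but per longest transcript the log2 ratio was -0.34 instead of 0.53. SREBF2 exceeded SCAP 1.96-fold. IDI1 exceeded IDI2, its muscle paralogue, which had 3 counts in all, by 1169-fold, with a 95% exact Poisson interval from 399.8 to 5666 that covers counting error only. All 3 counts of IDI2 lay in library 2. The mean log2 ratio of IDI1 over IDI2, which depends on the pseudocount of 0.5, was 10.24 with all libraries, 9.69 without library 1 and 11.13 without library 2. Opposite-strand annotation, with GTPBP4 as the gene of the largest share, covers 75.1% of the exon length of IDI2.

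A chi-square test asked whether the 3 counts of a gene departed from the scaled library sizes by more than counting error, with Benjamini-Hochberg adjustment over the 16293 genes that averaged 10 counts or more. Of the 31 genes 28 passed, with ACACA, FADS1 and TM7SF2 outside, while 68.6% of all tested genes passed. Among the 10723 genes at least as abundant as the lowest of the 31, 80.3% passed. With counts this high, small departures pass, so a call by itself says little about these genes. The median ratio of highest to lowest CPM was 1.22 in the 31 genes and 1.18 in those abundant genes. With an extra coefficient of variation of 0.05, 14 of the 31 passed, against 32.7% of all tested genes and 31.5% of the abundant ones. Without library 1, 18 of the 31 passed, while 28.1% of all tested genes did and 37.8% of the abundant ones.

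Libraries 1 and 3 stood at opposite ends for many of these genes. Of the 31 genes 16 were called and highest in library 1, against 27.9% of all tested genes, and 14 were called and lowest in library 3, against 15.0%. A further 9 were called and highest in library 2, against 23.1%, and 3 in library 3, against 17.7%. In library 1, 7 were called and lowest, against 33.4%, and in library 2 also 7, against 20.2%. With the extra coefficient of variation, 11 of the 31 were called and highest in library 1, namely HMGCS1, MVD, IDI1, FDFT1, SQLE, MSMO1, EBP, SC5D, INSIG1, STARD4 and SCD, while 15.4% of all tested genes were. SCAP and ACLY were called and lowest there, and SREBF1 was highest in library 2. Without library 1, 14 of the 31 were called and higher in library 2 than in library 3, against 13.4% of all tested genes. Called shares by library were not counted for the genes of like abundance. Of those genes, 37.8% were called without library 1 in either direction.

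The role groups were spread unevenly over the libraries. Of the 18 enzymes from ACAT2 to DHCR7, called or not, 13 were highest in library 1, against 39.6% of all tested genes, and 11 were lowest in library 3, against 25.4%. None was highest in library 3, against 27.2%. Their mean deviation in log2(CPM + 0.5) from the mean of the libraries was 0.14, -0.03 and -0.11 in libraries 1, 2 and 3. For the 7 fatty acid genes it was between -0.003 and 0.006 in the 3 libraries, with SCD and ACLY deviating in opposite directions. Over all tested genes the mean deviations were between -0.003 and 0.005. The difference between the enzyme groups was not tested. EGR1, an immediate early gene, stood beside this at 133 CPM in library 1, 33.1 in library 2 and 25.4 in library 3, and its part in the pattern was not tested.

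**Figure D4:**
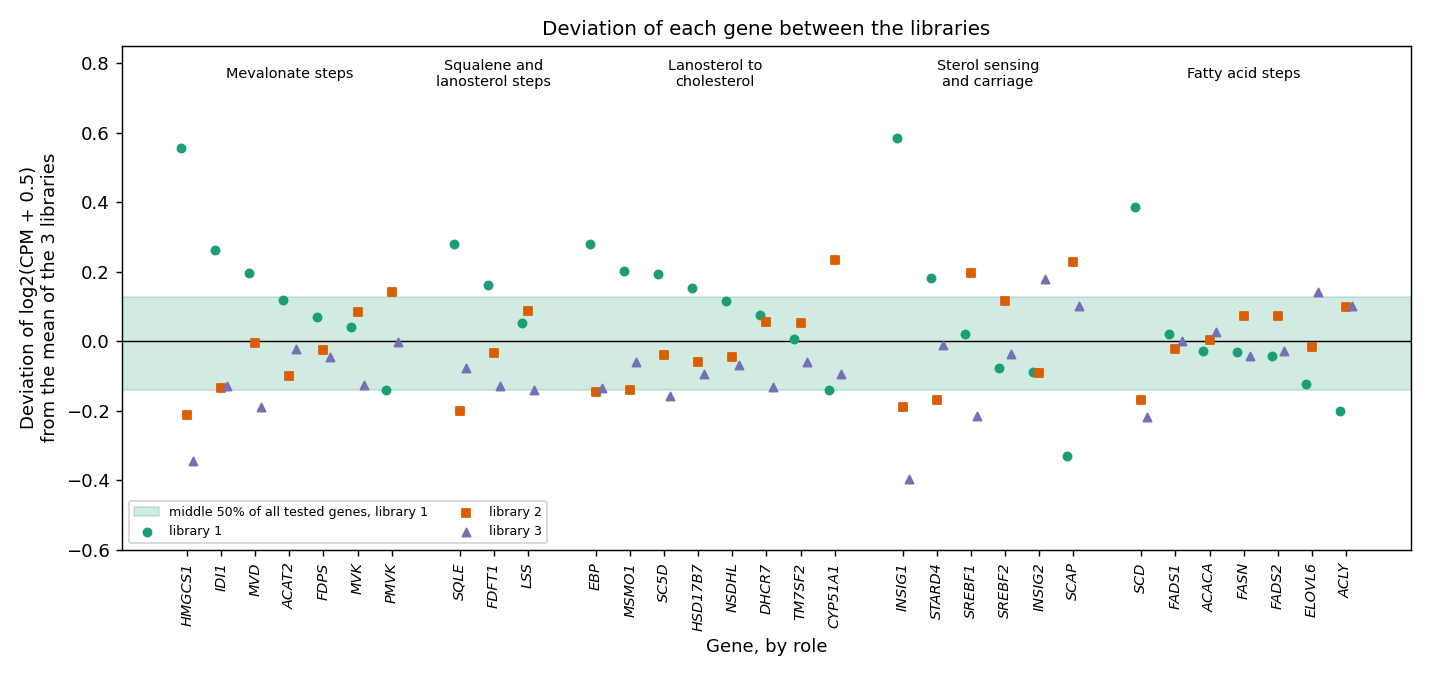
Deviation of log2(CPM + 0.5) of each gene from its mean over the 3 libraries, grouped by role and ordered by library 1, with the middle 50% of all tested genes in library 1 as a band. INSIG1 (0.58), HMGCS1 (0.56) and SCD (0.39) lie highest in library 1, SCAP (-0.33) lies lowest, and most cholesterol enzymes lie above 0 in library 1.

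A list of 46 further genes of the same pathways served as a comparison. Of these 43 were detected and tested, and 34 had a spread beyond counting error, against 68.6% of all tested genes and 80.3% of the abundant ones, so this count too lay near the background. IDI2 and THRSP, a regulator of lipogenesis, were among those below detection, and THRSP had 1 count in all. The most abundant were PGRMC1, a partner of sterol enzymes (50.02, 55.3 and 55.0 RPKM), ELOVL1, an elongase of very long chains (36.9, 48.8 and 45.3), and ELOVL5 (47.3, 36.2 and 39.1). Of the 46 genes 15 were called and highest in library 1 and 17 called and lowest there (32.6 and 37.0%). Over all tested genes the shares were 27.9 and 33.4%, so both lay near, and slightly above, the background. Only 43 of the 46 were tested, so the shares of the list are somewhat understated. Their mean deviation in library 1 was -0.02, against 0.09 for the 31 genes. Among its regulators, UBE2G2, which helps degrade sterol-regulated proteins, was highest in library 1 (114.3, 79.5 and 81.7 CPM). MBTPS2, a protease that releases SREBP, was lowest in library 1 (30.3, 38.8 and 42.4 CPM), as SCAP was. MBTPS1, the other such protease on the list, varied little (168.6, 177.8 and 175.0 CPM). Of the 12 regulators on the list 8 were lowest in library 1, called or not, against 44.8% of all tested genes. Other annotation on the same strand, with YY2 as the gene of the largest share, overlaps 13.4% of the exon length of MBTPS2.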

How the data were processed

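The authors deposited whole-number counts of reads per gene, with no normalization. Among tools, the submitters' processing notes list cutadapt 1.16, STAR 2.5.2a and featureCounts 1.6.2, and as build hg38. Annotation, strand setting and handling of shared or multiply aligned reads were not given in the sources used here. Columns were matched to the 3 libraries by title, and 6 further columns of counts, whose names matched no label, were left out. Exon lengths, positions and overlaps came from GENCODE 29, which held all 58735 gene identifiers. RPKM used the union of annotated exons, which lowers genes with long, rarely used exons.

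Library sizes were scaled with TMM factors (0.985, 1.01 and 1.00 for libraries 1, 2 and 3) from edgeR 4.0.16 in R 4.3.3. With 1 group there was no contrast for edgeR to test. Spread was examined with a chi-square test (2 degrees of freedom, SciPy 1.17.1), adjusted by Benjamini-Hochberg at a threshold of 0.05. On simulated counts it recovered 60% of genes raised 1.25-fold and 87% of those raised 2-fold in 1 library. Those counts held counting error alone, as the test assumes, so they cannot show how it behaves with further spread. The null of the test is counting error alone, so reads that are not independent molecules pass it more easily. Gene ratios took a pseudocount of 0.5 and an exact sign-flip test.

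The genes, lists, pairs and tests were chosen with earlier results of these data known. Every one of the 31 genes is named. Values in every library were given by rule for the 2 highest and the lowest gene of each role group, the 6 called genes with the widest range and the members of the fixed pairs. Of the comparison list the rule took the pair partners, the 3 most abundant and those below detection, of which some results are not reported here. UBE2G2, MBTPS1, MBTPS2 and EGR1, other genes with values in every library, the sequences shown, the comparison with genes of like abundance and the short sterol element were chosen after values were seen. Alternatives were DESeq2 1.42.0 size factors, library totals, an extra coefficient of variation, no filter, other pseudocounts, other lengths and leaving out each library.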

Additional observations from a re-analysis of the deposited data

How the results depend on the processing

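Under an extra coefficient of variation of 0.05, 14 of the 31 genes, 16 of the comparison list and 5322 of all tested genes were called, against 28, 34 and 11182 with counting error alone. Leaving out each library in turn gave 18 to 24 calls among the 31 genes, 18 to 34 in the comparison list and 4581 to 10016 over all genes, with the lowest value each time without library 1. The median level of the 31 genes was 17.2 RPKM per longest transcript, against 13.9 per union of exons, because a shorter length raises the value. The log2 ratio of ACAT2 over ACAT1 reversed to -0.34 per longest transcript, and that of FADS1 over FADS3 to 0.67 per longest transcript and 0.44 by counts, by construction of the lengths. The other ratios kept their direction in all settings tried, as did the calls of 30 of the 31 genes with either other scaling: FADS1 was called with DESeq2 size factors and ACACA with library totals. Without a filter on low counts no call among the 31 changed. With library totals 15 genes instead of 17 were highest in library 1. Without library 1 that count has no value. No paired analysis was possible because the labels give only 1 group. CYP51A1 and TM7SF2 had the fewest counts, and counting error limits them most.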
